A study of Mus musculus with 4 samples.

Results

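Genes for translation initiation factors (symbols Eif) and elongation factors (symbols Eef) were followed through a list of ATF4 binding sites in mouse regulatory T cells. Members were all peaks whose assigned gene symbol began with Eif or Eef and a digit. Kinases of eIF2 (Eif2ak), eIF4E-binding proteins (Eif4ebp), Eif2s1 and processed pseudogenes were left out by the rule. It took 26 of the 4544 listed peaks, assigned to 20 genes. Chromatin immunoprecipitation and sequencing (ChIP-seq) recovers DNA crosslinked to a protein, here 2 ATF4 immunoprecipitates and 2 inputs, numbered as replicates 1 and 2 in each group. All 4 samples were CD4+CD25+ cells, an enriched and not a pure regulatory T cell fraction, with 24000000 cells per replicate. The sample labels name spleen and the series' design adds lymph nodes. The sources used here state no strain, genotype, treatment or age, nor whether cells of several mice were pooled.

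The deposited result was a single peak list on build mm10, with no values per sample. Fold enrichment at the summit and −log10 q are the authors' own values, the read depth cannot be read from them, and they carry no error between replicates. No test was run, since a count over peaks or genes repeats no experiment. The intervals below are exact 95% Clopper-Pearson intervals and cover counting error only. A peak list holds no RNA level, so the cell type could be checked only by peaks. Promoter peaks were assigned to Foxp3, Il2ra, Ctla4 and Ikzf2 and not to Cd4 or Cd3e. Of 9 markers of B cells, myeloid cells, and CD8 T and NK cells, 0 had one. The share over all protein-coding genes was 11.3%, so 0 of 9 does not tell cell types apart. Cd79a, among the 9, had a distal peak at 3.55. Genes of these cells outside the 9 were not searched as a set. Among them, Cd68, a myeloid gene, had a promoter peak at 2.31, and Cd74 had promoter peaks at 5.16 and 3.24.

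Initiation factors bring the initiator tRNA and the small ribosomal subunit to the start codon of an mRNA, and elongation factors then carry aminoacyl-tRNAs to the ribosome and move it along. Phosphorylation of eIF2 under amino acid shortage or protein folding stress lowers general initiation while translation of ATF4 mRNA rises. ATF4 belongs to the basic leucine zipper family, whose members bind DNA as dimers, and its known targets serve amino acid supply and the stress response.

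The strongest member peak lay at Eif1, whose product guards the choice of start codon. It had a fold enrichment of 17.9 and a −log10 q of 431 (chr11:100319884-100320823) and ranked 23 of 4544 by fold enrichment and 19 by −log10 q. Eif1 stood apart from the other members, since its fold enrichment was 2.61 times that of the next one. That was Eif2s2, which encodes the β subunit of eIF2, at 6.87 (chr2:154892652-154892967). Eef1a1, the carrier of aminoacyl-tRNA to the ribosome, followed at 6.43 (chr9:78480773-78481771). Eif4g2 encodes a scaffold related to eIF4G that lacks the eIF4E-binding part, and its peak reached 6.26 (chr7:111082162-111083467). Eif4a2, an RNA helicase gene of the eIF4 group, reached 5.58 (chr16:23107280-23108339). These 5 peaks all covered the annotated transcription start site (TSS).

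RefSeq promoter sequence was available for 4 of these 5 genes, and the 100 bases just upstream of their TSS are shown on GRCm38.p6, the assembly of mm10. They show where the upstream edge of the strongest peaks lies. Capitals mark the bases inside the peak.
Eif1 (chr11:100319849-100319948, plus strand): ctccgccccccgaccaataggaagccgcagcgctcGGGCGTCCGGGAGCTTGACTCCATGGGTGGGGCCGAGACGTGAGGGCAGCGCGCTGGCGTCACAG
Eif2s2 (chr2:154892907-154893006, minus strand): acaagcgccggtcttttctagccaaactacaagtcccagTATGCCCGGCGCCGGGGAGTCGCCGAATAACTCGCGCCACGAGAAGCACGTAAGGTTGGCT
Eef1a1 (chr9:78481725-78481824, minus strand): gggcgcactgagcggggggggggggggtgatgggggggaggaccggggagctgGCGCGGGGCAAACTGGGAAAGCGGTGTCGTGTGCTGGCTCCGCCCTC
Eif4a2 (chr16:23107368-23107467, plus strand): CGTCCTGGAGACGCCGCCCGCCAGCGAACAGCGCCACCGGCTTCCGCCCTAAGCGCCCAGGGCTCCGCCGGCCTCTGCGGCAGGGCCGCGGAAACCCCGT
The peak took in the nearest 65 of the 100 upstream bases at Eif1, 61 at Eif2s2, 47 at Eef1a1 and all 100 at Eif4a2. In each of these 4 genes the summit lay downstream of the TSS.

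**Figure D1:**
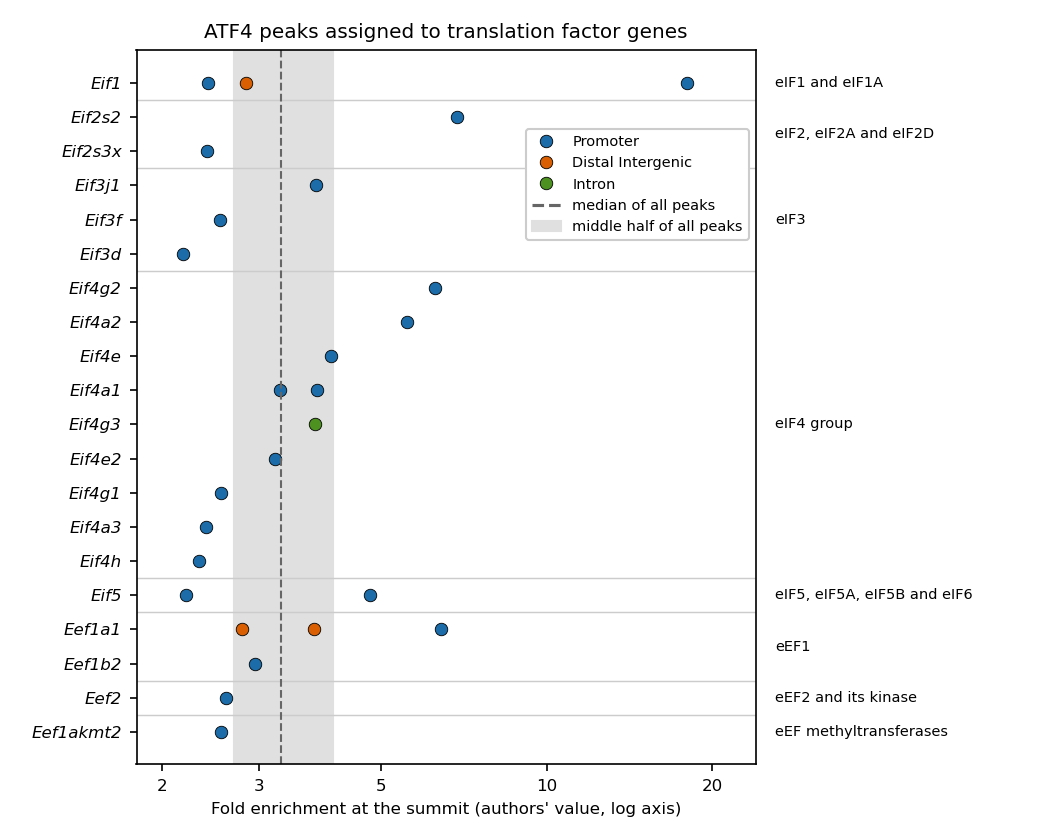
Fold enrichment at the summit (authors' value, log axis) of the 26 ATF4 peaks assigned to translation factor genes, grouped by complex, with a point for each peak coloured by annotation class. The dashed line is the median of all 4544 peaks, 3.30, and the band runs between their quartiles, 2.71 and 4.09. Eif1 reached 17.9, and 4 more promoter peaks lay between 5.58 and 6.87.

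Most member peaks were of ordinary strength for the list. Their fold enrichments ran from 2.18 to 17.9 with a median of 3.08 (order-statistic interval 2.56 to 3.83, n = 26), against a range of 1.17 to 43.8 and a median of 3.30 (3.25 to 3.33) over all 4544 peaks. By −log10 q the order of the medians was the other way round, with 7.14 for the members and 5.71 for the list. The median rank of the members was 2671.5 by fold enrichment and 1815 by −log10 q. Among the members, 5 peaks, or 19.2%, were among the strongest 10.0% of the list, which began at a fold enrichment of 5.34. A further 13 member peaks were under 3, a limit for which no share of the list was computed. The lower quartile was 2.55 for the members and 2.71 for the list. A −log10 q under 3 was found for 6 member peaks, or 23.1%, the same share as over the list, and no member peak had a q over 0.05.

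**Figure D2:**
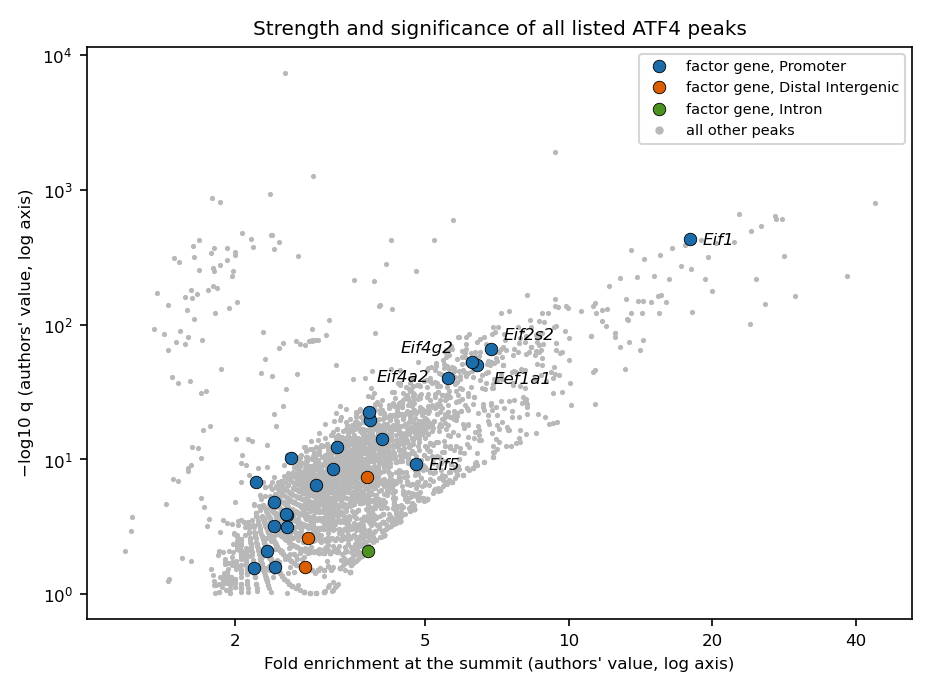
Fold enrichment against −log10 q (authors' values, both axes log) for the 26 peaks of translation factor genes, coloured by class, and all other peaks of the list in grey. Eif1, at 17.9 and 431, lies in the sparse upper end, and Eif2s2, Eef1a1, Eif4g2 and Eif4a2 at the upper edge of the main cloud.

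Promoter peaks were assigned to 19 of the 63 protein-coding factor genes, or 30.2% (19.2 to 43.0), against 11.3% of all 21887 protein-coding genes (10.9 to 11.7). The count over all genes was not restricted to genes that T cells express. Eif4g3 had an intron peak only, and 43 factor genes had no assigned peak. Here and below a gene without a peak is one to which the list assigns none, and peaks assigned to a neighbour can still lie at it. The share was 48.8% of 84 cytosolic ribosomal protein genes (37.7 to 59.96) and 36.8% of 38 aminoacyl-tRNA synthetase genes (21.8 to 54.0). Median fold enrichment was 2.83 over the 49 ribosomal protein peaks (2.73 to 3.21), whose interval lay within that of the factor genes' 3.08. It was 6.48 over the 17 synthetase peaks (3.76 to 11.1). The factor genes' 5 peaks among the strongest 10.0% of the list stood beside 0 of ribosomal protein genes and 9 of synthetase genes.

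**Figure D3:**
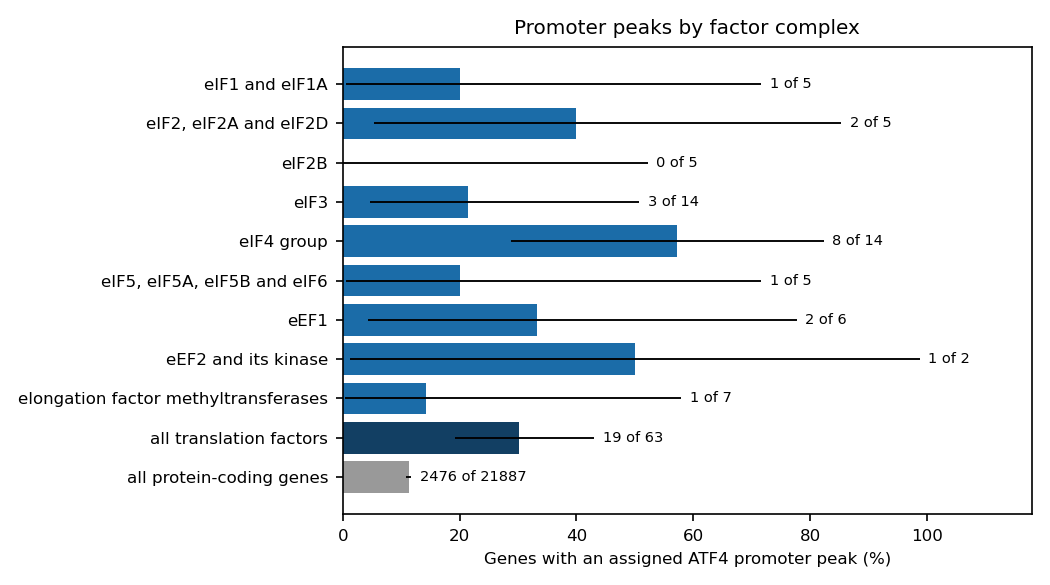
Percent of genes with at least 1 assigned ATF4 promoter peak, by factor complex, for all translation factors and for all protein-coding genes. Bars are shares, lines exact 95% intervals, and counts stand at the right. The eIF4 group had peaks at 8 of 14 genes and eIF2B at 0 of 5.

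Among the eIF1 and eIF1A genes, 1 of 5 had an assigned peak, Eif1. Eif1b, its close paralog, had none, nor had the scanning factor genes Eif1a and Eif1ax. Eif1ad had none by symbol, but a peak assigned to Banf1, at 3.89, covered its annotated start. Eif1 had 2 further peaks, both weak. The one at 2.42 lay 1.88 kb from the TSS and within the gene, 105 bp short of its end (chr11:100321827-100321994), so that its Promoter class rests on distance alone. The other, at 2.85, lay 1508 bp beyond the end of the gene (chr11:100323607-100324011). Eif1 RNA is copied into pseudogenes, 3 of which carry its symbol in RefSeq. How reads shared with copies of Eif1, or of any other factor gene, were placed is not stated.

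eIF2 carries the initiator tRNA. Besides Eif2s2 at 6.87, the X-linked γ subunit gene Eif2s3x had a peak at 2.41 that ended 70 bp upstream of the TSS (chrX:94212721-94212930). Its Y-linked counterpart Eif2s3y had none, and neither had Eif2a and Eif2d, whose products deliver initiator tRNA by other routes. No peak was assigned to any of the 5 genes of eIF2B, the exchange factor that recharges eIF2 with GTP. A count of 0 among 5 genes allows a share of up to 52.2% by its interval, so a lower share than elsewhere was not detectable.

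eIF3 is a multisubunit scaffold on the small ribosomal subunit, and 3 of its 14 genes had a promoter peak. Eif3j1, for a loosely bound subunit, had 3.82 with a −log10 q of 22.5 (chr2:122028159-122028488). Eif3f had 2.55 and Eif3d, whose product can bind the mRNA cap, 2.18, the lowest value of all members. The Eif3d peak also had the lowest −log10 q of the members, 1.57. The core subunit genes Eif3a, Eif3b and Eif3c had no assigned peak.

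The eIF4 group loads mRNA onto the ribosome, and 8 of its 14 genes, or 57.1% (28.9 to 82.3), had a promoter peak. Of its helicase genes Eif4a1, Eif4a2 and Eif4a3 had one, at unlike strength, and Eif4a3l1 had none. Eif4a2 had 5.58, Eif4a1 3.83 and 3.27 at 2 neighbouring peaks inside the gene, and Eif4a3, part of the exon junction complex, 2.41. Eif4e, for the cap-binding protein, had 4.06 (chr3:138526857-138527056), and Eif4e2, a cap-binding relative that represses translation, had 3.21. The Eif4e peak lay over the start of a transcript that begins 729 bp inside the gene as RefSeq annotates it. Eif4e3 and Eif4e1b had no peak. Among the scaffolds, Eif4g2 at 6.26 was followed by Eif4g1 at 2.56, and Eif4g3 had only its intron peak at 3.79, in intron 3 of 35 and 61.7 kb from the TSS (chr4:138059570-138059762). The helicase cofactor gene Eif4h had 2.33, and the cofactor gene Eif4b had no peak.

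Eif5, which encodes the GTPase activator of eIF2, had 2 promoter peaks. The stronger, at 4.78, lay 2036 bp upstream of the TSS (chr12:111535875-111536065) and the weaker, at 2.21, 98 bp upstream (chr12:111537838-111538003). By −log10 q they also kept this order, at 9.28 and 6.83. Eif5a and Eif5a2, whose products carry the amino acid hypusine, the subunit joining factor gene Eif5b and Eif6 had no assigned peak.

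Genes with Eef symbols had promoter peaks at 4 of 15, or 26.7%, against 15 of 48 genes with Eif symbols, or 31.2%. The Eef genes take in 7 methyltransferase genes and the kinase gene Eef2k, which are not elongation factors themselves. The Eif genes likewise take in Eif4a3, part of the exon junction complex, so neither set holds factors of its step alone. The eEF1 genes alone had them at 2 of 6, or 33.3%, so the order of these shares depends on which genes are counted. Eef1a1 led with 3 peaks, while Eef1a2, the form of muscle and neurons, had none. The other peaks of Eef1a1, at 3.78 and 2.79, lay 972 bp and 231 bp beyond the end of the gene (chr9:78476655-78477481 and chr9:78478011-78478222). Eef1b2, an exchange factor subunit gene, had 2.95, while its partners Eef1d and Eef1g had none. Eef2, the translocase gene, had 2.62 over its TSS with a −log10 q of 10.3, and Eef2k, the kinase that inhibits the translocase, had none. Of 7 methyltransferase genes named for these factors, 1 had an assigned peak, Eef1akmt2 at 2.56. Like that of Eif4e, this peak lay over the start of a transcript that begins inside the gene as RefSeq annotates it. Peaks assigned to neighbours overlapped an end of Eef1akmt1, at 3.12, and lay 796 bp upstream of Eef1akmt4, at 3.42.

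In all, 22 of the 26 member peaks were of the Promoter class, or 84.6% (65.1 to 95.6), against 74.3% of the list (73.0 to 75.5). The others were 3 Distal Intergenic peaks and 1 Intron peak. Of the 22 promoter peaks, 20 lay within 1 kb of the TSS of the assigned transcript and 11 covered it. For Eif4e and Eef1akmt2, both among the 11, that TSS lies inside the gene as RefSeq annotates it. The peaks over the TSS were 42.3% of the 26, against 44.7% of the list, 65.3% of ribosomal protein peaks and 64.7% of synthetase peaks. Summits lay downstream of the TSS in 14 of 22, or 63.6%, close to the 67.5% of 2849 promoter peaks at protein-coding genes. Within 200 bp of the TSS lay 14 member summits, also 63.6%, against 70.8% over those 2849.

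The 5 strongest promoter peaks had their summits 61 to 564 bp downstream of the TSS and reached into the gene. At Eif1 the summit lay 564 bp downstream and at Eif4a2 322 bp, while at Eif2s2 it was 90 bp, at Eef1a1 78 bp and at Eif4g2 61 bp. Eif1, Eef1a1, Eif4a2 and Eif4g2 had peaks 940, 999, 1060 and 1306 bp wide, and Eif2s2 one of 316 bp. These 4 widths stood apart from the other 17 promoter peaks, which were 165 to 654 bp wide with a median of 210 bp. At least 900 bp, a limit set after the widths were seen, was reached by 4 of 22 member promoter peaks, or 18.2%, and by 152 of all 3375 promoter peaks, or 4.50%. Width and fold enrichment both come from the same reads, and the part that read number plays in this was not tested.

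**Figure D4:**
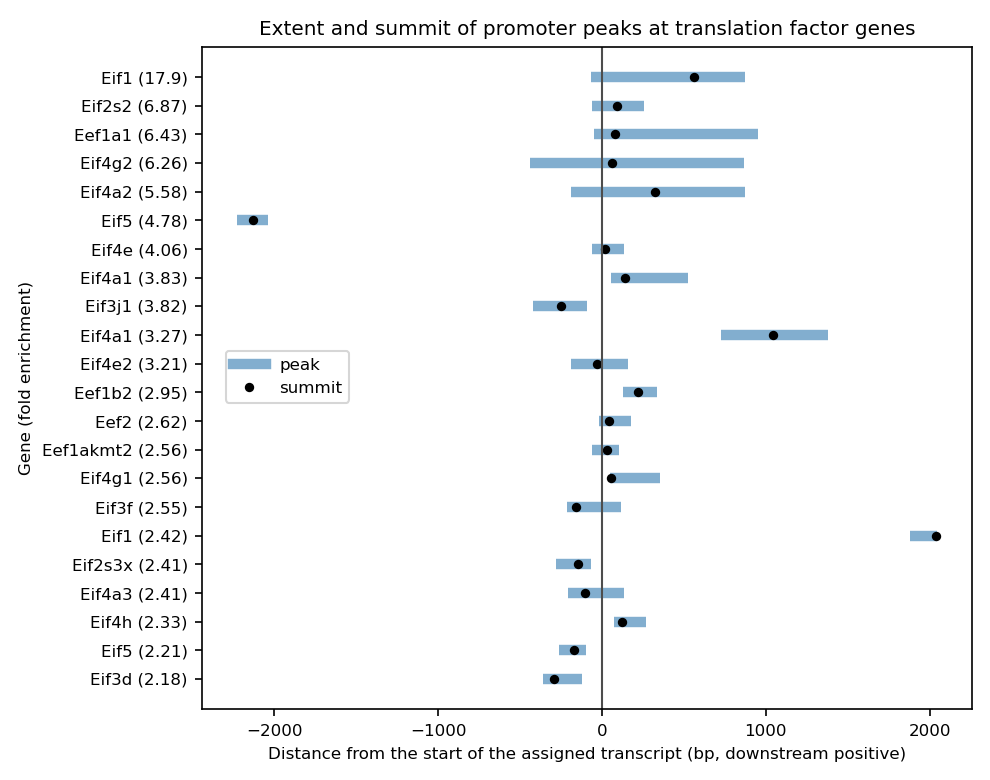
Each of the 22 promoter peaks of translation factor genes as a bar from its first to its last base, in bp from the start of the assigned transcript, with a dot at the summit and the fold enrichment beside the gene. Peaks of Eif1, Eef1a1, Eif4g2 and Eif4a2 reach into the gene by at least 868 bp, and the stronger Eif5 peak lies 2036 bp upstream.

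Promoter sequence was searched for letters that proteins of the ATF4 family are known to bind. The windows, credited to RefSeq, ran from 250 bases before to 50 after the TSS and were held for 49 of the 63 factor genes and 17492 protein-coding genes. TGATGNAA, the composite element of ATF4 and C/EBP proteins, was searched on both strands. So were TGACGTCA, the cyclic AMP response element, and TGANTCA. The last takes in forms bound by AP-1 dimers, such as TGAGTCA, but also others, such as TGATTCA. Its counts are therefore not counts of AP-1 sites. TGATGNAA includes TGATGCAA, which occurred in 0 of the 49 factor genes and in 1.01% of all genes. TGATGNAA was held by 1 of 18 factor genes with a promoter peak, Eif2s3x, and 1 of 31 without, Eef2k. Over all genes its share was 4.13%. TGACGTCA was held by Eef2 alone, against 2.54% of all genes. TGANTCA was held by Eif1, Eif3f and Eif3j1 among the 18 and by Eif3l among the 31, against 8.12% of all genes. Over the 1998 genes with a promoter peak and a window, the shares were 3.95% for TGATGNAA, 4.65% for TGACGTCA and 6.56% for TGANTCA.

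The sites below are those of the factor genes with a promoter peak that lie inside the peak, and the site at Eif1, which lies outside it. Capitals mark the matching letters.
Eef2 (chr10:81176617-81176656, plus strand): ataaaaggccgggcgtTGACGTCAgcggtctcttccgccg
Eif2s3x (chrX:94212724-94212763, minus strand): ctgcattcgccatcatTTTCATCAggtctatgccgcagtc
Eif1 (chr11:100319776-100319814, plus strand): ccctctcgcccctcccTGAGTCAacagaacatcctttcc
Eif3f (chr7:108934326-108934364, plus strand): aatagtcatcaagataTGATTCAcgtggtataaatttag
The Eef2 match begins at the third base of the annotated transcript, 36 bp from the peak summit. That of Eif2s3x, shown on the gene's strand and so reading as the reverse complement, lies 54 bp from the summit. The Eif3f match, TGATTCA and so not an AP-1 form, lies 91 bp from the summit. At Eif1 the match begins 157 bases upstream of the TSS, outside the peak and 718 bp from its summit. The Eif3j1 match begins 27 bases into the transcript and outside the peak. The window and the peak overlapped in 14 factor genes. Each of the 3 motifs was thus found inside the peak of 1 of the 14, or 7.14%. Over 1614 genes with promoter peaks the shares were 2.42% for TGATGNAA, 2.97% for TGACGTCA and 2.35% for TGANTCA. A share that rests on 1 gene is too coarse to set apart from these. A match of letters does not show binding, and the parts of peaks beyond these windows were not searched, which include the summits of all 5 strongest peaks and the whole Eif4g2 peak.

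Several factor genes hold small nucleolar RNA (snoRNA) genes within their span. Of 8 factor genes whose span holds a gene that RefSeq classes as snoRNA, 7 had a promoter peak. They were Eef1b2, Eef2, Eif4a1, Eif4a2, Eif4g1, Eif4g2 and Eif5. The exception was Eif3a. Of the 55 other factor genes 12 had a promoter peak, or 21.8%, and of all 372 protein-coding genes that host a snoRNA 86 had one, or 23.1%. No snoRNA gene lay within 500 bp of a member peak. This grouping was made after the peaks were seen.

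Genes that work beside these factors had promoter peaks at 17 of 49, or 34.7%, against 11.3% of all protein-coding genes. Poly(A)-binding proteins and their partners had them at 6 of 9. Larp1, which represses mRNAs with terminal pyrimidine tracts, had 8.09 (chr11:58008612-58008844), and Pdcd4, an inhibitor of the eIF4A helicase, had 4.64. Pabpc1, for the main poly(A)-binding protein, had 4.45. Among helicases and ABCF proteins of initiation 1 of 8 had a promoter peak, or 12.5%, close to the share over all genes. It was the helicase gene Ddx3x at 7.76 (chrX:13280872-13281277), with a weaker second peak at 2.39. Larp1 and Ddx3x lay above every factor gene except Eif1. Dhps and Dohh, whose enzymes make the hypusine of eIF5A, had 4.18 and 2.27, although neither eIF5A gene had a peak. With Dph6 at 3.58 and Secisbp2 they made up 4 of 10 genes of hypusine, selenocysteine and diphthamide handling. Release, recycling and rescue factors had peaks at 4 of 11, led by the release factor gene Gspt1 at 3.19, Denr at 2.59, and Abce1 and Hbs1l at 2.55 each. Mitochondrial translation factors had them at 2 of 11, or 18.2%, which is also not far from the share over all genes. These were Gfm2 at 2.79 and Mtres1 at 2.66.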

How the data were processed

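ATF4 immunoprecipitates and inputs were deposited as 1 peak list. Per the submitters' processing notes, Trim Galore, Bowtie2, MACS2 and deepTools were used on build mm10, with versions not given in the sources used here. Pooling of replicates and use of the inputs are not given either. All peak names carry the name of 1 Bowtie2 alignment, whose samples are not stated. Each deposited row joins the authors' fold enrichment, −log10 p, −log10 q, score, summit, annotation class and assigned gene in 17 fields, in the layout of MACS2 and ChIPseeker. Of these, fold enrichment, −log10 q, summit, class, gene and distance to the TSS were used. Starts were raised by 1 to count from 1. Reads per sample, and so depth, are unknown.

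Factor genes were those of RefSeq GRCm38.p6 that are protein-coding on the autosomes, X or Y. Complexes and gene lists were set by hand, and 49 of 50 listed neighbours matched RefSeq (Mtrfr did not). Members and lists were chosen with earlier results of these data known. Every factor gene with a peak could be named, with positions for the 3 strongest promoter peaks, the strongest of each complex, non-promoter peaks and genes with several peaks, and up to 3 genes were to be named from each other list. Further names and positions, and the genes for the printed motif sites, were chosen after their values were seen. The motif search, the symbol rule and the interval of the median were tested on simulated data. Alternatives covered the −log10 q, strength, distance and assignment of peaks, and the rank by −log10 q was added after the data were seen. Python 3.11.15 was used with numpy 2.4.6, pandas 2.3.3, scipy 1.17.1 and matplotlib 3.10.9.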

Additional observations from a re-analysis of the deposited data

How the results depend on the processing

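The share of factor genes with a promoter peak fell to 14.3% when only peaks at or above the list's median fold enrichment counted (9 of 63, against 5.47% of all protein-coding genes) and to 17.5% when peaks had to cover the TSS (11 of 63, against 7.86%). With TGATGCAA alone, the share of factor promoters holding the element was 0%, against 4.08% for TGATGNAA. The other alternatives moved the shares and medians by less than their intervals, and the count of 17 other translation genes by less than 1.5 times. Peaks within 1 kb of a RefSeq gene start, whatever their assigned symbol, gave 21 of 49 factor genes, or 42.9%, against 11.3% of all genes with such a start. Fewer genes have a RefSeq start here, and among the same 49 the assigned symbols gave 18, or 36.7%, with Eif4g2 left out. The added genes were Eif1ad, and Eef1akmt4 and its readthrough Eef1akmt4-ece2, which share 1 peak. With a −log10 q of at least 3, Eif3d and Eif4h were no longer counted, and the median fold enrichment was 3.52 over 20 member peaks, against 3.51 over the list at that limit. Without Eif1's strongest peak the members' median was 2.95. By strongest peak of each gene it was 3.498, against 3.40 over the list. The members' median thus lay slightly above the list's with the −log10 q limit and by strongest peak of each gene. Over Promoter class peaks only it lay below, at 3.08 against 3.19. No paired analysis was possible because the list holds no values per sample, and leaving out a replicate was not possible for the same reason. Depth was unknown, so peaks missing from a gene cannot be told apart from peaks below the detection limit.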

Other observations

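Several peaks at factor genes were assigned to a neighbour and so are not among the 26. That over the start of Eif1ad (chr19:5366758-5367060) had a −log10 q of 12.5, and that upstream of Eef1akmt4, which shares its start with a readthrough gene, was assigned to Alg3. Within the span of Eif4g2, 2 peaks at 4.66 and 3.57 were assigned to LOC115486847 and classed as 3′ UTR, and 1 at 4.65 lay in intron 13 of 18 of Eif3b and was assigned to Gm4869. A peak at 4.69 within the span of Eif2d was assigned to Rassf5.

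Peaks also lay just beyond the far end of Eif4a2 and Eif5, besides those of Eef1a1 and Eif1. A peak at 6.03 and 1076 bp wide began 26 bp beyond the end of Eif4a2 (chr16:23114158-23115233) and exceeded the 5.58 of the peak at its start. By −log10 q the order was the other way round, 11.2 against 40.2. Beyond Eif5, 2 peaks assigned to Snora28 at 3.35 and 3.69 lay 540 and 1628 bp from the gene's end. Further peaks beyond the end of a factor gene included promoter peaks of neighbours, such as Dapk3 54 bp from Eef2, Cd68 323 bp from Eif4a1 and Foxred2 679 bp from Eif3d. No share over all genes was computed for such peaks and no test was made.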
